A study of Mus musculus with 12 samples.

Results

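A set of 10 genes of programmed axon degeneration and of the DLK-JNK injury pathway were followed in ribosome-associated RNA and total RNA of cultured sensory neurons. They were chosen by symbol and are Sarm1, Nmnat1, Nmnat2, Nmnat3, Nampt, Map3k12, Map3k13, Mapk8, Mapk10 and Mapk8ip3. All 10 were among the 14177 genes of the count table for the Cre- libraries, and 8 of the 10 were among the 9112 genes of the table for the Cre+ libraries. RNA was sequenced from dorsal root ganglion (DRG) neurons of male RiboTag mice, aged 3 to 6 months per the labels, while the methods state a younger age. Each of the 12 libraries came from 5 pooled mice whose neurons, purified on Percoll, had been cultured for 24 h with serum. The groups were HA pull-downs and inputs from Rpl22HA/HA Runx3-Cre+ mice and from Rpl22HA/HA Runx3-Cre- littermates, with 3 libraries each, and an input was 10% of the lysate before the pull-down. Every mouse was homozygous for the conditional HA-tagged ribosomal protein gene Rpl22, Runx3-Cre switches the tag on in proprioceptors, the neurons of muscle sense, and the Cre- pull-downs were made as the background control.

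SARM1 is an enzyme that destroys NAD and drives the loss of an injured axon, and it is held in check by NMNAT enzymes, which complete NAD synthesis from the product of NAMPT. DLK, encoded by Map3k12, and its relative LZK, encoded by Map3k13, are kinases that report axon injury through JNK kinases to the nucleus, and in DRG neurons this route is known for both degeneration and regeneration responses. NMNAT2 is the short-lived axonal form, JNK3 (Mapk10) is the JNK kinase largely restricted to neurons, and JIP3 (Mapk8ip3) is a scaffold that links JNK kinases to axonal transport motors.

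The comparisons rest on telling close relatives apart by sequence, so the longest run of coding bases shared by each pair was read from the mouse transcripts (GENCODE M21, GRCm38). Each pair of JNK kinases shared 23 bases at most and the DLK-LZK pair 17, both shorter than the 50-base reads, and no 50-base stretch of any of the 10 genes occurred in another of them or in Mapk9. The runs are shown in capitals with 12 coding bases on either side, 5′ to 3′, at coding bases 595 to 617 of Mapk8, 799 to 821 of Mapk10, 625 to 641 of Map3k12 and 652 to 668 of Map3k13. The base changes just outside the capitals end each shared run.
Mapk8: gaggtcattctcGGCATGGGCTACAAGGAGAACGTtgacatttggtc
Mapk10: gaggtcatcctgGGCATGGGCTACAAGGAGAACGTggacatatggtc
Map3k12: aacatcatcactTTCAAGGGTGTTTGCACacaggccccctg
Map3k13: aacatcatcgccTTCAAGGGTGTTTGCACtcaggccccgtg

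The NMNAT genes were less alike, and the longest coding run shared by any pair of them was the 14 bases of Nmnat2 and Nmnat3, at coding bases 821 to 834 and 206 to 219.
Nmnat2: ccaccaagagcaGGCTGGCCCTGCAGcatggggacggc
Nmnat3: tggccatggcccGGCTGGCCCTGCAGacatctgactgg

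In the RefSeq annotation of GRCm38 (mm10) the NAD genes lie at chr11:78470273-78497816 (Sarm1, minus strand), chr4:149467569-149485210 (Nmnat1, minus), chr1:152954781-153119266 (Nmnat2, plus), chr9:98287433-98420533 (Nmnat3, plus) and chr12:32820335-32853369 (Nampt, plus). The kinase and scaffold genes lie at chr15:102497647-102517004 (Map3k12, minus), chr16:21824056-21933439 (Map3k13, plus), chr14:33377898-33447353 (Mapk8, minus), chr5:102908547-103212604 (Mapk10, minus) and chr17:24897506-24936977 (Mapk8ip3, minus). Reads were counted over exons, and use of the strand in counting is not stated. The overlaps below use GENCODE M21 exons, whose ends differ in part from those of the RefSeq models that were counted. Of the exon bases of Map3k12, 19.3% overlap genes on the opposite strand, chiefly Pcbp2, and of those of Mapk8ip3 20.4% overlap Eme2, Mrps34 and Nme3, so some of their reads may belong to these neighbours. The overlap was 3.22% for Map3k13, with long noncoding RNA genes, and 0% for the other 7 genes.

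The libraries held between 8886308 and 18633365 counted fragments, with the Cre- pull-downs (14861795 to 18633365) deeper than the other groups (8886308 to 13941113). Runx3, whose promoter drives Cre, had 2.39 to 5.55 normalized counts (per 1000000 counted fragments, scaled by TMM) in the Cre+ inputs and 2.07 to 22.8 in the Cre+ pull-downs, and its enrichment there did not pass the test (log2 fold change 1.55, FDR = 0.309 in edgeR's quasi-likelihood test). In the Cre- libraries it had 1.90 to 4.70 in the inputs and 20.8 to 51.4 in the pull-downs (log2 fold change 3.52, FDR = 0.000236). The 8 proprioceptor markers, of which all but Pvalb have a row in the Cre+ table, went the same way. Their sum was 375 to 594 in the Cre+ pull-downs against 206 to 288 in the inputs, with 1 of 7 tested called higher, and 1404 to 1720.4 in the Cre- pull-downs against 247 to 333 in the inputs, with 7 of 8 called higher. The 1 called in Cre+ was the neurotrophin receptor gene Ntrk3, which was enriched by similar amounts under both labels (log2 fold changes 2.19 and 2.05). The driver and the sum of these markers thus go against the labels, so the groups are called by their labels throughout and no direction below is a statement on the presence of Cre. Rpl22 had log2 fold changes of -0.88 (FDR = 0.294) and -1.38 (FDR = 0.00229) in the libraries labelled Cre+ and Cre-, and its counts do not separate tagged from untagged RNA. The summed level of 11 pan-neuronal markers was 22568 to 24630.0 in the Cre+ pull-downs against 21025 to 27632 in the inputs, and 49132 to 56628 in the Cre- pull-downs against 24255 to 29169. The sum of 12 glial markers (7 listed for Cre+ and 11 for Cre-) was lower in every pull-down than in every input of its label, at 1657 to 2271 against 2426 to 3718 for Cre+ and 1269 to 1690 against 2798 to 4312 for Cre-. Cre+ pull-down 1 stood apart, with a Pearson r of 0.724 and 0.685 to the other 2 pull-downs of its group over log counts, against 0.831 between those 2 and at least 0.913 within every other group. For the 10 genes, log2 fold changes within Cre+ that rest on it are given with and without it. In such bulk samples fewer cells of a type and less RNA per cell cannot be told apart. The p-values measure the spread between libraries, in which pools of mice and pull-downs both vary. An input was part of a lysate before its pull-down, so libraries of both fractions can share a pool. The main tests did not pair them.

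**Figure D1:**
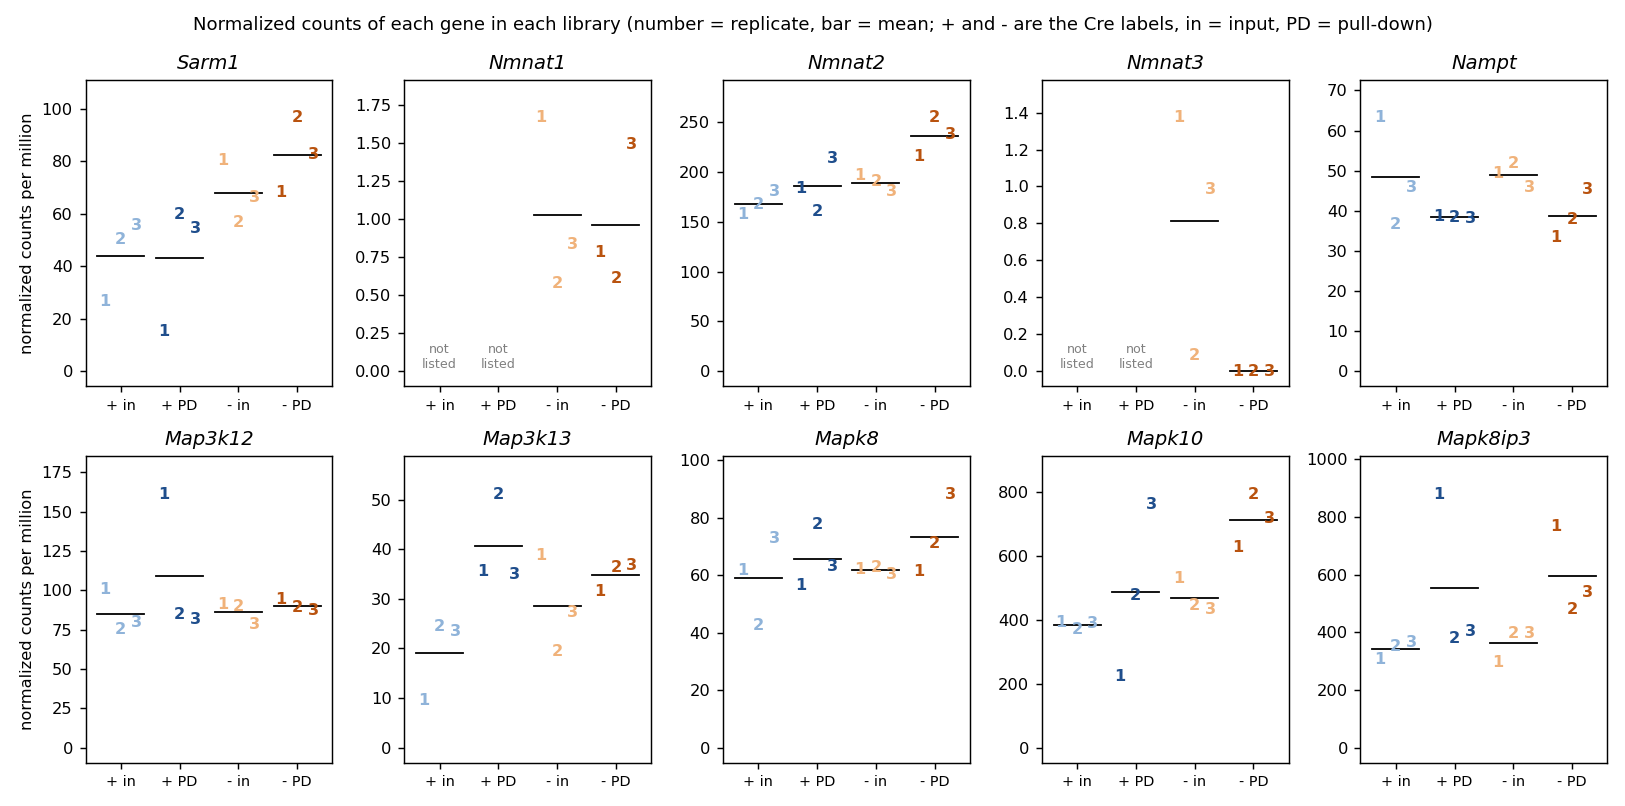
Normalized counts per 1000000 (y axis, linear, from 0) of the 10 genes in each library, by Cre label (+ or -) and fraction (in, input; PD, pull-down). Digits give the library's number and bars the group mean, and a reader should see Mapk10 and Mapk8ip3 at the highest levels, the 3 Cre- pull-downs of both above the 3 Cre- inputs, and Cre+ pull-down 1 far from its group for Sarm1, Map3k12 and Mapk8ip3.

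The first question was how strongly each gene was expressed in these cultures, which was read from the inputs as normalized counts per kb of exon. Mapk10 was the most abundant in the Cre+ inputs with 34.5 ± 1.06 (SD, n = 3), followed by Nmnat2 with 29.1 ± 2.01 and Mapk8ip3 with 23.4 ± 2.13, and the ranges of these neighbours did not overlap. Nampt (9.60 ± 2.68), Map3k12 (9.45 ± 1.52) and Sarm1 (7.83 ± 2.73) came next with ranges that overlapped, then Mapk8 with 5.16 ± 1.34, whose range overlapped that of Sarm1, and Map3k13 with 2.19 ± 0.960. The Cre- inputs gave the same leading genes, Mapk10 with 42.0 ± 4.69, Nmnat2 with 32.7 ± 1.35 and Mapk8ip3 with 24.9 ± 4.07, again without overlap. There Sarm1 (12.1 ± 2.10), Nampt (9.68 ± 0.609) and Map3k12 (9.61 ± 0.772) had overlapping ranges, above Mapk8 with 5.39 ± 0.113. The order depends on the length used, since per kb of the longest transcript Mapk8ip3 (46.8 in Cre+, 49.8 in Cre-) stood above Nmnat2 (36.2 and 40.8), with overlap in Cre-. By that length Map3k12 (16.4 in Cre+) stood apart above Nampt (10.7), and Mapk8 (10.3) passed Sarm1 (9.06) with overlap.

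In the pull-downs the same 3 genes led, with Mapk10 at 43.7 ± 24.1 and 63.9 ± 7.58, Mapk8ip3 at 38.0 ± 19.4 and 40.8 ± 10.5, and Nmnat2 at 32.1 ± 4.64 and 40.8 ± 3.39 normalized counts per kb in Cre+ and Cre-. Among the Cre- pull-downs Mapk10 was apart from the next gene, whereas Mapk8ip3 overlapped Nmnat2. Per kb of the longest transcript this was the other way round, with Mapk10 (98.8) overlapping Mapk8ip3 (81.6) and the latter apart from Nmnat2 (50.8). Among the Cre+ pull-downs the ranges of these 3 genes overlapped, and by the longest transcript Mapk8ip3 (76.1) led Mapk10 (67.6), again with overlap.

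NMNAT1 is the nuclear and NMNAT3 the mitochondrial form of the enzyme, and both genes were close to the limit of detection. Neither has a row in the Cre+ table, in which every listed gene has at least 5 counts in every library. In the Cre- libraries Nmnat1 had 17, 7 and 11 counts in the inputs and 14, 9 and 20 in the pull-downs, so both fractions overlapped. Nmnat3 had 14, 1 and 13 counts in the inputs and 0 in each of the 3 pull-downs. The pull-down total of 0 allows up to 3 counts over the group, or 0.0651 per 1000000. The inputs with 0.788 per 1000000 were 12.1-fold above that ceiling. This value covers the counting error of the pull-downs only, not that of the inputs or the spread between libraries. Input 2, with 1 count (0.0826 per 1000000), lay close to the ceiling. Both genes fell under the filter of a mean FPKM above 1, and without that filter Nmnat3 was called lower (FDR = 0.0549, edgeR) while Nmnat1 had a log2 fold change of -0.10 (FDR = 0.964). Per kb of exon the Cre- inputs held 0.338 ± 0.187 of Nmnat1 and 0.163 ± 0.132 of Nmnat3 against 32.7 ± 1.35 of Nmnat2, which placed the axonal form far above the others in these cells.

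The second question was which of the genes the HA pull-down enriched over input. Among the Cre+ libraries none of the 8 genes listed met the criteria for a call, an FDR below 0.1 together with a change of at least 2-fold, where 4.72% of all 8947 genes tested were called higher and 2.19% lower. None of the 8 had an unadjusted p below 0.05 in edgeR, as 23.6% of all genes did, and DESeq2 and edgeR's exact test called none of them. The log2 fold change was above 0 for 6 of the 8 and for 53.0% of all genes, with medians of 0.25 and 0.08, and scaling by the library total alone, which moved the median of all genes to -0.36, put 4 of the 6 (Nmnat2, Map3k12, Mapk8 and Mapk10) below 0 but above that median. The 3 pull-downs were all higher than the 3 inputs for Map3k13 and Mapk8ip3 and for 15.5% of all genes, and all lower for 0 of the 8 and for 17.9% of all genes.

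Among the Cre- libraries 8 genes passed the filter and none was called, where 6.01% of 11526 genes were called higher and 5.83% lower. Mapk10 and Mapk8ip3 passed FDR below 0.1 with changes under 2-fold, as 13.0% of all genes did upwards and 11.1% downwards at any fold. They were also the 2 of the 8 with an unadjusted p below 0.05, against 31.0% of all genes, and DESeq2 and the exact test called none at a 2-fold change. The log2 fold change was above 0 for 7 of the 8 and for 47.5% of all genes, with medians of 0.29 and -0.04, and that scaling, with the median of all genes at -0.27, put 1 of the 7 (Map3k12) below 0 but above that median. The 3 pull-downs were all higher than the 3 inputs for Mapk10, Mapk8ip3 and Nmnat2 and for 18.2% of all genes, and all lower for Nampt and for 18.6% of all genes.

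**Figure D2:**
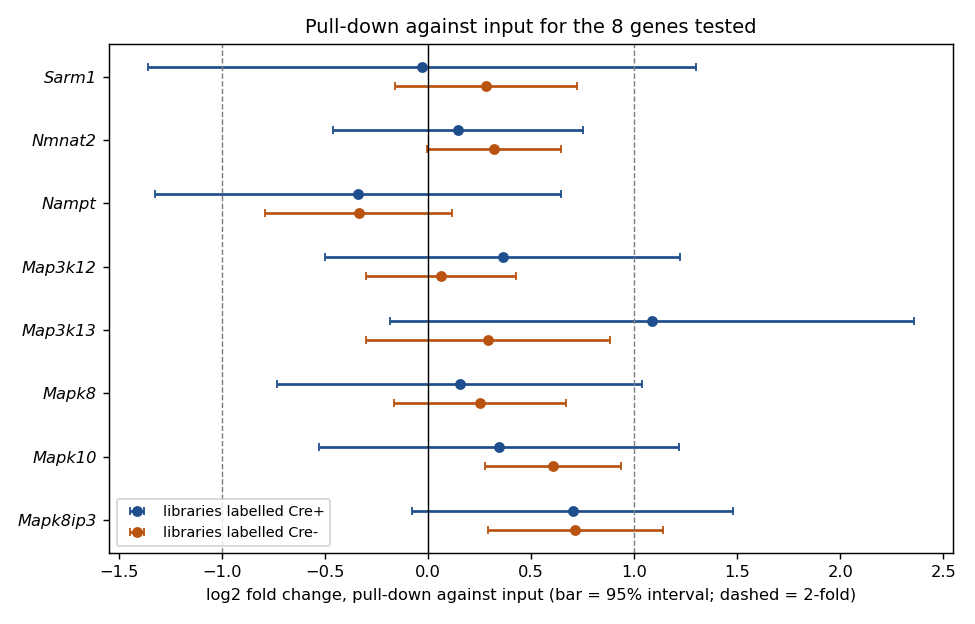
Log2 fold change of pull-down against input (x axis) for the 8 genes tested, in the libraries labelled Cre+ and Cre-, with 95% intervals from edgeR's quasi-likelihood fit and dashed lines at 2-fold. The intervals of Mapk10 and Mapk8ip3 in Cre- lie above 0, while all 8 intervals in Cre+ include 0.

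Sarm1, the NADase, had 26.6, 50.1 and 55.5 normalized counts in the Cre+ inputs and 15.2, 59.7 and 54.5 in the pull-downs. Input 1 and pull-down 1 were low in this table, and the fractions overlapped. The log2 fold change was -0.03 ± 0.59 (SE) with a 95% interval of -1.36 to 1.30 (FDR = 0.979), and 0.41 without pull-down 1 (FDR = 0.520). In Cre- it had 80.4, 56.8 and 66.4 in the inputs and 68.0, 96.7 and 82.7 in the pull-downs, again with overlap (log2 fold change 0.28 ± 0.20, 95% interval -0.16 to 0.72, FDR = 0.380).

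Nmnat2, the axonal NMNAT, was among the steadiest of the 8 between libraries. It had 157, 167 and 179.9 normalized counts in the Cre+ inputs and 183, 160.2 and 214 in the pull-downs, with overlap (log2 fold change 0.14 ± 0.27, 95% interval -0.46 to 0.75, FDR = 0.780). In Cre- it had 196, 191 and 181 in the inputs and 215, 254 and 238 in the pull-downs. There all 3 pull-downs were higher, but the change of 0.32 ± 0.15 did not pass the test (95% interval -0.01 to 0.64, FDR = 0.168).

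Nampt, which makes the substrate of the NMNAT enzymes, was the gene with a negative log2 fold change under both labels. It had 63.2, 36.5 and 45.8 normalized counts in the Cre+ inputs and 38.6, 38.4 and 38.0 in the pull-downs. These overlapped because of input 2 (log2 fold change -0.34 ± 0.44, 95% interval -1.32 to 0.65, FDR = 0.670). In Cre- it had 49.2, 51.8 and 45.7 in the inputs and 33.3, 37.7 and 45.3 in the pull-downs. Every pull-down was lower there, by a narrow margin in pull-down 3, and the change of -0.34 ± 0.21 did not pass the test (95% interval -0.79 to 0.12, FDR = 0.301).

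Map3k12, encoding DLK, had 100.5, 74.9 and 79.4 normalized counts in the Cre+ inputs and 161, 84.7 and 81.3 in the pull-downs. Pull-down 1 alone lay above every input, and the log2 fold change of 0.36 ± 0.38 (95% interval -0.50 to 1.22, FDR = 0.594) became 0.00 without it (FDR = 0.994). In Cre- the inputs held 91.0, 89.6 and 78.4 and the pull-downs 94.4, 89.0 and 86.9, with overlap and a change close to 0 (log2 fold change 0.06 ± 0.17, 95% interval -0.30 to 0.42, FDR = 0.840).

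Map3k13, encoding LZK, had 9.43, 24.5 and 23.3 normalized counts in the Cre+ inputs and 35.5, 51.1 and 35.0 in the pull-downs. All 3 pull-downs were higher and the log2 fold change of 1.09 ± 0.57 was the largest of the 8, yet it did not pass the test (95% interval -0.19 to 2.36, FDR = 0.278), and without pull-down 1 it was 1.21 (FDR = 0.158). When all 12 libraries shared one estimate of the spread it was called (log2 fold change 1.11, FDR = 0.0781), in a fit that called 1240 of 8830 genes higher. In Cre- the inputs held 38.8, 19.4 and 27.3 and the pull-downs 31.5, 36.2 and 36.7, with overlap (log2 fold change 0.29 ± 0.27, 95% interval -0.30 to 0.88, FDR = 0.507).

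Mapk8, encoding the widely expressed JNK1, had 61.6, 42.5 and 72.9 normalized counts in the Cre+ inputs and 56.3, 77.5 and 63.0 in the pull-downs. The fractions overlapped (log2 fold change 0.15 ± 0.40, 95% interval -0.73 to 1.04, FDR = 0.850). In Cre- the inputs were close together at 62.1, 62.7 and 60.3, and the pull-downs held 61.1, 70.9 and 88.2 (log2 fold change 0.25 ± 0.19, 95% interval -0.17 to 0.67, FDR = 0.410).

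Mapk10, encoding the neuronal JNK3, had 391, 369.8 and 389 normalized counts in the Cre+ inputs and 224, 477 and 760.1 in the pull-downs. The inputs agreed closely, whereas pull-down 1 lay below and pull-downs 2 and 3 above them (log2 fold change 0.34 ± 0.39, 95% interval -0.53 to 1.22, FDR = 0.620). Without pull-down 1 the change was 0.73 (FDR = 0.0983). In Cre- the inputs held 528, 443 and 433 and the pull-downs 624, 793 and 717. All 3 pull-downs were higher, by 1.52-fold (95% interval 1.21 to 1.91), and this rise passed the test of the difference from 0 (log2 fold change 0.60 ± 0.15, FDR = 0.0171).

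Mapk8ip3, encoding the scaffold JIP3, had 306, 351 and 365 normalized counts in the Cre+ inputs and 879.6, 378 and 403 in the pull-downs. All 3 pull-downs were higher, pull-down 1 by far and the others by a little. The log2 fold change of 0.70 ± 0.35 (95% interval -0.08 to 1.48, FDR = 0.255) was 0.24 without pull-down 1 (FDR = 0.495). In Cre- the inputs held 294, 397 and 395 and the pull-downs 767, 479 and 537, and the rise of 1.64-fold (95% interval 1.22 to 2.20) passed the test (log2 fold change 0.71 ± 0.20, FDR = 0.0261). With libraries scaled by their total alone the FDR in Cre- was 0.118 for Mapk8ip3 and 0.0958 for Mapk10, and in one fit over all 12 libraries it was 0.255 and 0.403, so neither gene passed under every fit.

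The 2 genes that rose in Cre- moved beside other measures of the same libraries. The pan-neuronal markers had a median log2 fold change of 0.52 in Cre- against 0.02 in Cre+, with 3 and 0 of 11 called higher and 0 and 2 called lower. The markers were split in Cre-, where the 3 called were Nefm, Nefh and Snap25. There 4 of the 11 lay below 0, among them Rbfox3 (-0.76, FDR = 0.00450). Longer transcripts were higher in the pull-downs, with a Spearman correlation between the longest annotated transcript and the log2 fold change of 0.52 across 8599 genes in Cre+ and 0.34 across 11040 in Cre-, where genes are not independent replicates. Map3k13 (8583 bases), Mapk8ip3 (7278) and Mapk10 (7203) have the longest transcripts of the 10 genes, against medians of 3859 and 3472 bases over the genes tested in Cre+ and Cre-. The part of neuronal content and of transcript length in the values of these genes was not tested.

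The third question was whether enrichment differed between the labels, which an interaction term over all 12 libraries addressed. No gene of the 8 was called, where 2.58% of 8830 genes were called higher and 2.1% lower in Cre+ than in Cre-, and none had an unadjusted p below 0.05, as 19.5% of all genes did, or was called by DESeq2. Map3k13 had the largest difference, 0.84 ± 0.60 on the log2 scale with a 95% interval of -0.44 to 2.12 (FDR = 0.457). Map3k12 followed with 0.34 (-0.52 to 1.19) and Sarm1 with -0.26 (-1.61 to 1.08). Each of these 2 differences turned in 1 of 12 fits that left out 1 library, to -0.0412 for Map3k12 and 0.14 for Sarm1. Their changes in Cre+ alone were 0.00 and 0.41 without pull-down 1. The narrowest interval belonged to Nmnat2, at -0.13 (-0.70 to 0.44, FDR = 0.819), so for this gene differences in enrichment of 2-fold lay outside the 95% interval, whereas for Sarm1, Map3k12, Map3k13 and Mapk10 they did not.

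The inputs of both labels were also compared. No gene of the 8 was called, as 0% of 8830 genes were, with 174 genes (1.97%) at an unadjusted p below 0.05 and 1 gene called by DESeq2 and by the exact test each. On a common scale the Mapk10 inputs of Cre+ (386 to 405) lay below those of Cre- (427 to 520.5), as those of 4.01% of all genes did, with a log2 difference of -0.21 ± 0.15 (FDR = 0.999). Sarm1 had the largest difference in size, -0.55 ± 0.28 (95% interval -1.17 to 0.07, FDR = 0.999).

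Ratios within a library do not depend on its scaling, and 3 pairs of functional partners were read in this way, per kb of exon. Nmnat2 to Sarm1, the axonal protector and the NADase, stood at 2.37, 3.27 and 2.65 in the Cre- inputs and 3.08, 2.56 and 2.80 in the pull-downs, a narrow band with full overlap. In Cre+ the ratio was 5.73, 3.25 and 3.15 in the inputs and 11.7, 2.61 and 3.82 in the pull-downs, where pull-down 1 and input 1 stood out. Every one of the 12 libraries held more Nmnat2 than Sarm1.

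Map3k12 to Map3k13 stood at 2.27, 4.48 and 2.78 in the Cre- inputs and 2.90, 2.38 and 2.29 in the pull-downs. In Cre+ the ratio was 10.3, 2.97 and 3.30 in the inputs and 4.40, 1.61 and 2.25 in the pull-downs, so DLK transcripts exceeded LZK transcripts in all 12 libraries, and the fractions overlapped under both labels. By the longest transcript these ratios were higher, at 17.6, 5.07 and 5.64 in the Cre+ inputs, 7.51, 2.75 and 3.85 in the Cre+ pull-downs, and between 3.88 and 7.65 in Cre-. Mapk10 to Mapk8 was 8.74, 7.26 and 7.38 in the Cre- inputs and 10.5, 11.5 and 8.36 in the pull-downs, and 6.52, 8.94 and 5.49 against 4.09, 6.32 and 12.4 in Cre+. JNK3 transcripts thus exceeded JNK1 transcripts in every library by at least 4.09-fold per kb (3.18-fold by the longest transcript), and the fractions overlapped.

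**Figure D3:**
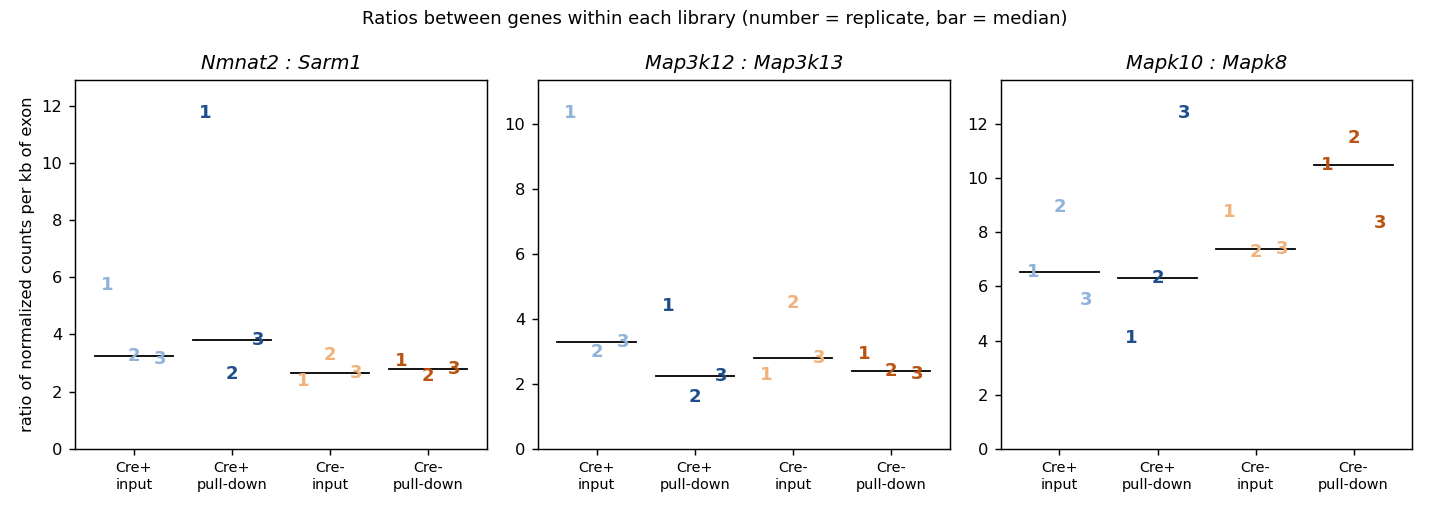
Ratio of normalized counts per kb of exon (y axis, linear, from 0) of Nmnat2 to Sarm1, Map3k12 to Map3k13 and Mapk10 to Mapk8 in each library, with digits for library numbers and bars for group medians. All ratios lie above 1, and input 1 and pull-down 1 of Cre+ hold the highest values of Nmnat2 to Sarm1 (5.73 and 11.7).

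Other genes of the same pathways were described from 4 lists. Of 22 DLK-JNK kinases, scaffolds and regulators, 4 of 21 tested rose in the Cre+ pull-downs and none fell (median log2 fold change 0.23 against 0.08 over all genes), where 4.72% of all genes rose. In Cre- 2 of 22 rose and none fell (0.17 against -0.04), a share near the 6.01% of all genes that rose. Mycbp2, the ubiquitin ligase PHR1 that promotes the turnover of both DLK and NMNAT2, rose under both labels. It had 149, 294 and 289.8 normalized counts in the Cre+ inputs and 1405, 858 and 994 in the pull-downs (log2 fold change 2.15 ± 0.34, FDR = 0.0260). In Cre- it had 201, 343 and 287 in the inputs and 701, 682 and 608 in the pull-downs (1.26 ± 0.19, FDR = 0.000895). Its longest transcript has 15233 bases.

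Tnik, a kinase upstream of JNK signalling, also rose under both labels. It had 46.3, 94.1 and 104 in the Cre+ inputs and 123, 251 and 371 in the pull-downs (1.60 ± 0.46, FDR = 0.0964), and 61.3, 83.9 and 115 against 208, 294 and 395 in Cre- (1.79 ± 0.27, FDR = 0.00140). Its longest transcript has 12276 bases. Map4k4, a kinase that acts above DLK, rose in Cre+ (149, 168 and 151 against 328, 367 and 321, log2 fold change 1.12 ± 0.25, FDR = 0.0550), with 130.1, 153 and 178 against 133, 167 and 114 in Cre-. The difference between the labels passed the test (1.32 ± 0.30, FDR = 0.0483). Endothelial markers (5 of 6 listed, without Cldn5) moved in the same direction, with a sum of 118 to 561 in the Cre+ pull-downs against 51.6 to 96.0 in the inputs and of 21.4 to 144 against 70.7 to 95.4 in Cre-. Their median log2 fold change was 2.48 in Cre+, with 2 of 5 called higher, and their median difference between the labels 2.23 over the 4 tested, and the part of endothelial RNA in the value of Map4k4 was not tested. Map3k9, a mixed-lineage kinase like DLK, rose in Cre+ as well (1.30 ± 0.34, FDR = 0.0798). In Cre- it passed FDR below 0.1 with a change under 2-fold (0.65 ± 0.16, FDR = 0.0161). Its difference between the labels was not called (0.70 ± 0.38, FDR = 0.329).

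The calls of this list in Cre- all held when any 1 library was left out. In Cre+ the list had 4 higher calls without pull-down 1, 2 without pull-down 2 or 3, 1 without input 2 and 0 without input 1 or 3, and Mycbp2 then had FDR = 0.118 and 0.112. Without pull-down 2 it also had 1 lower call, Map3k11 (log2 fold change -2.04, FDR = 0.0988). With libraries scaled by their total alone only Mycbp2 was still called in Cre+ (FDR = 0.0398), and the calls of Tnik (FDR = 0.160), Map4k4 (FDR = 0.149) and Map3k9 (FDR = 0.171) ended. That scaling added 1 lower call in Cre-, Dusp10 (-1.10, FDR = 0.0114). The call of Map4k4 between the labels was lost without Cre+ input 3, Cre- input 2 or 3, or Cre- pull-down 3.

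Of 21 JNK targets and injury genes, 2 of 16 tested fell in the Cre+ pull-downs and none rose (median -0.27 against 0.08), where 2.19% of all genes fell. In Cre- 5 of 20 fell and 1 rose (-0.46 against -0.04), where 5.83% of all genes fell and 6.01% rose. The 5 became 4 without input 2 or 3 or pull-down 2 and 3 without pull-down 3, and 2 of 15 fell in the fit of all 12 libraries. The 1 that rose became 0 without pull-down 2, 2 without input 3 and 3 without pull-down 1, where Jun, the transcription factor that JNK activates (1.14 and 1.05), and Bcl2l11, a promoter of apoptosis (1.77 and 1.40), were called. Those that fell in Cre- are known from injured and regenerating neurons, and were Gap43 of growth cones, the neuropeptide gene Gal, the stress factors Atf4 and Ddit3, and the peptidase gene Ecel1. Gap43 had 545, 584 and 747 normalized counts in the inputs and 143, 208 and 207 in the pull-downs (log2 fold change -1.75 ± 0.19, FDR = 0.000111), with the fractions far apart. In Cre+ the Gap43 pull-downs (110, 527 and 358) also lay below the inputs (565, 617 and 699), without a call (-0.92 ± 0.47, FDR = 0.267). Its difference between the labels was not called (0.88 ± 0.56, FDR = 0.403), but was without Cre+ pull-down 1 (1.30, FDR = 0.0230). Atf4 was not called in Cre+ either (-0.44 ± 0.29, FDR = 0.376). In Cre- Gal had 16.0, 20.1 and 32.2 in the inputs and 5.41, 5.35 and 5.29 in the pull-downs (-2.09 ± 0.34, FDR = 0.00152). Atf4 had 318, 291 and 287 against 167, 147 and 108 (-1.08 ± 0.18, FDR = 0.00174), and without pull-down 3 its change was under 2-fold (-0.91). The call of Ecel1 ended in 4 of the 6 fits that left out 1 library, in each of which its change was under 2-fold. Markers of other cells fell in the same libraries. The sum of the markers of other sensory neurons was 1554 to 2167 in the Cre- pull-downs against 3037 to 3278 in the inputs (median log2 fold change -1.20, 4 of 11 called lower), and the glial markers had a median of -1.31 with 3 of 9 called lower. The part of these cell types in the fall of the injury genes was not tested.

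Fos, an immediate early gene, rose in Cre- with 8.43, 7.02 and 6.29 in the inputs and 21.9, 21.9 and 9.60 in the pull-downs (1.30 ± 0.37, FDR = 0.0314), and the call was lost without pull-down 2 (1.12, FDR = 0.130) or input 3 (1.21, FDR = 0.106). In Cre+ Sprr1a, a regeneration gene, fell from 584, 517 and 632 to 109, 279 and 253 (-1.43 ± 0.35, FDR = 0.0696). The longest transcripts of Sprr1a (806 bases) and Gap43 (1420) lie under the medians of 3859 and 3472 bases over the genes tested in Cre+ and Cre-. Stmn2, the axonal microtubule regulator that JNK phosphorylates, fell from 2141, 1394 and 1540.0 to 474, 839 and 881 (-1.21 ± 0.30, FDR = 0.0698), and without pull-down 1 its change was under 2-fold and the call ended (-0.94, FDR = 0.0540). In Cre- Stmn2 had 1557, 1422 and 1674 in the inputs and 1469, 1557 and 1938 in the pull-downs, and the difference between the labels passed the test (-1.26 ± 0.34, FDR = 0.0780). With library-size scaling the list had 4 lower calls in Cre+, with Atf3 (-1.32, FDR = 0.0669) and Gadd45a (-1.36, FDR = 0.0534) added, and in the fit of all 12 libraries it had 1 higher call, Ecel1 (1.12, FDR = 0.0577). The list's 2 calls in Cre+ became 0 without any 1 of the 3 inputs or without pull-down 3 and 1 (Sprr1a) without pull-down 1. Most pan-neuronal markers moved in the same way, with a median difference between the labels of -0.78, 9 of 11 below 0 and 2 called lower. Rbfox3 went the other way and was called higher (1.02, FDR = 0.0678). The part of neuronal content in the Stmn2 values was not tested. Ecel1 differed between the labels in the other direction (2.16 ± 0.56, FDR = 0.0703), and its call and that of Stmn2 each held in 4 of 12 fits that left out 1 library.

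Of 16 genes of NAD metabolism, 9 were tested in Cre+ and 10 in Cre-, and none was called by edgeR's quasi-likelihood test (median -0.42 against 0.08 and -0.14 against -0.04), where 4.72% of all genes were called higher and 2.19% lower in Cre+ and 6.01% and 5.83% in Cre-. Nearest in Cre+ were the mitochondrial NAD kinase gene Nadk2, with 7.86, 6.19 and 7.59 in the inputs and 2.89, 1.34 and 1.39 in the pull-downs (-1.94 ± 0.64, FDR = 0.119), and the mitochondrial deacylase gene Sirt3 (-2.13 ± 0.73, FDR = 0.128). In Cre+ 2 genes of this list were called lower by DESeq2 (Sirt3 and the purine nucleoside phosphorylase gene Pnp), 2 by the exact test and 2 with library-size scaling (Nadk2 and Sirt3 in both), and 3 in the fit of all 12 libraries (Nadk2, Sirt3 and Pnp). There was also 1 such call without pull-down 1 (Nadk2) and 1 without pull-down 3 (Pnp). Of all genes, DESeq2 called 568 lower, the exact test 457, library-size scaling 699 and the fit of all 12 libraries 932, against 196 in the test of the 6 libraries. In Cre- 4 of the 10 passed FDR below 0.1 with changes under 2-fold, 2 of them higher and 2 lower, where 13.0% of all genes passed upwards and 11.1% downwards. The higher ones were led by Parp1, a large consumer of NAD in the nucleus, with 127, 103 and 97.1 against 160.4, 198 and 173 (0.70 ± 0.17, FDR = 0.0156). The nucleotidase gene Nt5c2 followed (0.88 ± 0.25, FDR = 0.0320), and without input 3 it was called (1.02, FDR = 0.0518). The lower ones were Pnp (-0.67 ± 0.23, FDR = 0.0645) and the deacetylase gene Sirt2 (-0.46 ± 0.17, FDR = 0.0856).

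Of 23 further genes of axon degeneration and survival, none of 21 tested was called in Cre+ and 1 of 22 in Cre- by edgeR's quasi-likelihood test (median 0.36 against 0.08 and 0.01 against -0.04), where 4.72% of all genes were called higher and 2.19% lower in Cre+ and 6.01% and 5.83% in Cre-. In Cre+ DESeq2 called 2 of them higher, edgeR's exact test 1 and the fit of all 12 libraries 2, and without pull-down 1 there were 2 higher calls. Of all genes, these 4 fits called 1103, 786, 1240 and 803 higher, against 422 in the test of the 6 libraries. Bcl2, which guards against apoptosis, was among these (FDR = 0.0742 in DESeq2, 0.0423 in the fit of all 12 and 0.0340 without pull-down 1). The call in Cre- was Apaf1, the caspase-9 adaptor, with 6.08, 8.42 and 13.2 in the inputs and 24.5, 12.7 and 20.5 in the pull-downs, which overlapped (1.06 ± 0.37, FDR = 0.0692). Its call was lost in 4 of 6 fits that left out 1 library, with library-size scaling (FDR = 0.141) and in the fit of all 12 libraries (FDR = 0.298). Ngfr, the p75 neurotrophin receptor, fell in Cre- by under 2-fold (-0.99, FDR = 0.00138) and was not called. It was called lower with library-size scaling (-1.22, FDR = 0.000539), in the fit of all 12 libraries (-1.02, FDR = 0.00471) and with the replicate block (-1.01, FDR = 0.00169). With that scaling and in the fit of all 12 libraries the list had 0 higher calls and 1 lower. Among the nearest in Cre+ was Dpysl2, encoding the microtubule-binding protein CRMP2 (-0.66 ± 0.25, FDR = 0.159). Enrichment of Ngfr was higher in Cre+ than in Cre-, with 894, 832 and 848 in the inputs against 1167, 1206 and 985 in the pull-downs of Cre+, and 936, 932 and 896 against 528, 492 and 368 in Cre-. The difference of 1.42 ± 0.25 (FDR = 0.0155) passed the test in all 12 fits that left out 1 library. Of the 21 genes tested, 2 were called higher in Cre+ than in Cre- in this comparison and none lower, where 2.58% of all genes were higher and 2.1% lower, and the other is not reported here. The 2 became 1 in 9 of the 12 fits. Ngfr is also expressed by glia, whose marker list had a median difference of 0.98 between the labels, with 0 of 7 tested called higher and 1 lower, and the markers of other sensory neurons had a median difference of 1.11, with 10 of 10 above 0 and none called. The part of either in the value of Ngfr was not tested.

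**Figure D4:**
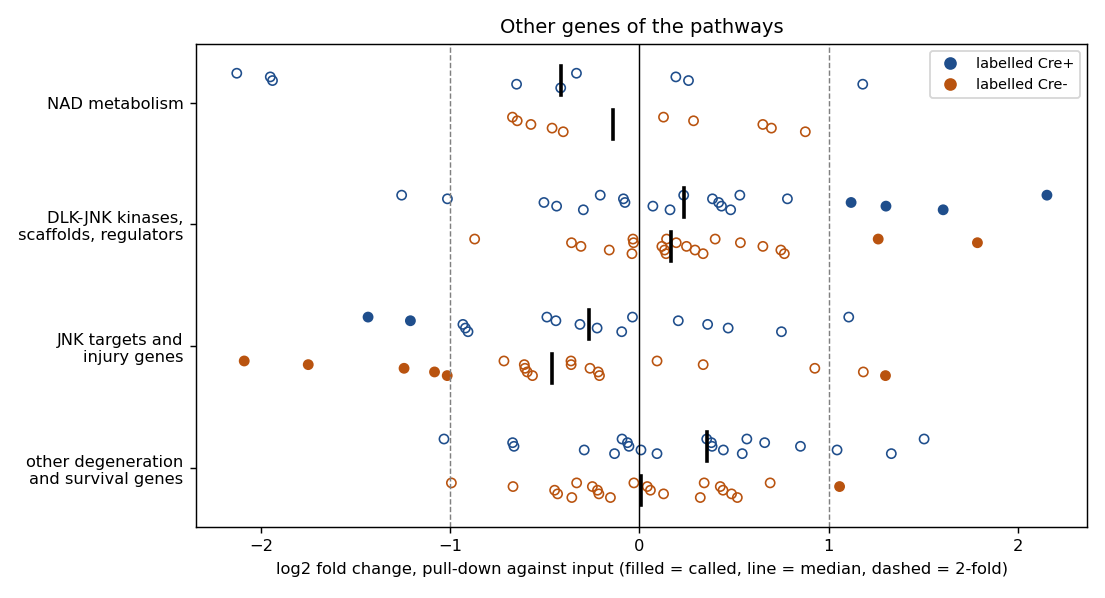
Log2 fold change of pull-down against input (x axis) of each tested gene in the 4 pathway lists (rows), for libraries labelled Cre+ and Cre-, with filled points for genes called, and lines for medians. Filled points lie to the right among the DLK-JNK regulators (4 in Cre+ and 2 in Cre-) and mainly to the left among the injury genes (2 in Cre+, and 5 to the left with 1 to the right in Cre-).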

How the data were processed

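RNA-seq of HA pull-downs and inputs was deposited as 2 tables, one per Cre label. According to the methods, the authors aligned 50-base paired reads to mm10 with STAR and counted uniquely mapped fragments per gene with HTSeq on the refSeq refFlat annotation; the deposited counts are whole numbers and not normalized. The authors also deposited a mean FPKM per gene, which was used here as a filter (above 1). Columns with the authors' log2 fold changes, p-values and FDR, and 18 further columns of per-library values, were not used. The columns of the Cre+ table were assigned as groups, since their names resemble titles of other samples, so their numbers serve as names.

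edgeR 4.0.16 in R 4.3.3 (TMM, robust glmQLFit, glmQLFTest) tested pull-down against input on the 6 libraries of each label, the difference on all 12, and the inputs on 6. Benjamini-Hochberg adjustment ran over all genes tested, and calls required FDR below 0.1 and a 2-fold change. Normalized counts are per 1000000 fragments after TMM within a table, and per kb values use the union of GENCODE M21 exons. Scripts were tested on simulated data. Alternatives were DESeq2 1.42.0, the exact test, library-size scaling, other filters, one fit of all 12 libraries, no fold limit, a replicate block, the longest transcript, and leaving out each library. The named genes were all 10 members of the set, and per list up to 3 called genes in each direction by FDR, or the 2 nearest where none was called. Tnik in Cre+, Ddit3 and Ecel1 in Cre-, and values set beside a named gene, were added after values were seen. Some results of the pathway lists, among them 1 gene that this rule names, are not reported here. The genes and lists were chosen with earlier results of these data known.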

Additional observations from a re-analysis of the deposited data

How the results depend on the processing

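The count of called genes among the 10 was 0 in each direction and comparison, and remained 0 in every fit that left out 1 library (lowest 0, highest 0). It became 1 higher in Cre+ with all 12 libraries in one fit (Map3k13), 1 lower in Cre- without a filter (Nmnat3) and 2 higher in Cre- with no fold limit (Mapk10 and Mapk8ip3). Of all genes, the fit of all 12 libraries called 1240 of 8830 higher in Cre+. With no fold limit 13.0% of all genes were higher in Cre-, and with the filter 5.83% were called lower there. DESeq2 gave Sarm1 a log2 fold change of 0.0310 in Cre+. Scaling by library size alone moved the median of all genes from 0.08 to -0.36 in Cre+, from -0.04 to -0.27 in Cre- and from 0.13 to -0.12 in the difference, and turned Nmnat2 (-0.30), Map3k12 (-0.11), Mapk8 (-0.27) and Mapk10 (-0.0724) in Cre+, Map3k12 (-0.17) in Cre-, and Nampt (-0.19) and Mapk8ip3 (-0.26) in the difference. Relative to the shifted median none of the named values in Cre+ or Cre- turned. For the other alternatives the cause was not tested.

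Leaving out 1 library turned the sign of log2 fold changes with these ranges. In Cre+ they were -0.31 to 0.41 for Sarm1, -0.0356 to 0.33 for Mapk8 and -0.10 to 0.73 for Mapk10, and in Cre- -0.0038 to 0.10 for Map3k12. In the difference they were -0.58 to 0.14 for Sarm1, -0.13 to 0.28 for Nampt, -0.0412 to 0.51 for Map3k12, -0.24 to 0.12 for Mapk8, -0.69 to 0.14 for Mapk10 and -0.46 to 0.24 for Mapk8ip3. Between the inputs they were -0.18 to 0.23 for Nampt, -0.0904 to 0.13 for Map3k12, -0.15 to 0.19 for Mapk8 and -0.13 to 0.0555 for Mapk8ip3. None of these was called in the first place.

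Over all genes, the calls in Cre+ (422 higher and 196 lower) ranged from 4 to 1240 and from 0 to 932 over all alternatives, those in Cre- (693 and 672) from 267 to 1502 and from 175 to 1284, and those of the difference (228 and 185) from 15 to 712 and from 31 to 693. The lowest of Cre+ came without input 3 (4 and 0) and the lowest of the difference without Cre- input 2 (15 and 31). With 3 libraries a group, 2-fold differences stayed inside the 95% interval of 7 of the 8 genes of the set in Cre+, all but Nmnat2.

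Replicate numbers are shared by pull-downs and inputs of Cre-, where same-numbered deviations had correlations of 0.07, 0.03 and 0.12. Each pull-down correlated best with its own number. Correlations this weak, with 3 libraries a group, neither show nor exclude that same-numbered samples came from the same lysate. The main tests did not pair the samples. With a replicate block 0 of the 8 genes were called and 704 genes rose and 792 fell among all genes, with FDR = 0.0252 for Mapk10 and 0.0461 for Mapk8ip3. No block was run in Cre+, since the numbers in its column names could not be tied to the labelled samples.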
